A study of Mus musculus with 9 samples.

Results

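The genes described here carry and regulate cyclic AMP signalling in the spiny projection neurons of the striatum. They were chosen by name as Ppp1r1b, Pde10a, Pde1b, Adcy5, Rgs9, Gnal, Arpp21, Ptpn5, Gng7 and Rasd2, and each probe set annotated to 1 of these symbols alone was taken. Each probe set reads a transcript with several short probes, and the brightness of these is combined into a single signal. The choice gave 15 of the 22690 probe sets, for 7 of the 10 genes, among 12393 genes named on the array. Pde10a, Arpp21 and Ptpn5 had 3 probe sets each, Rgs9 and Rasd2 had 2 each, and Ppp1r1b and Pde1b had 1 each. Adcy5, Gnal and Gng7 had no probe set under these symbols and were not analysed here.

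RNA came from the left and right striatum of male C57BL/6J mice aged 56 days, on 1 single-colour Affymetrix array per mouse. There were 3 arrays from mice injected with methamphetamine (METH), 3 from mice injected with MPTP, and 3 from saline-injected mice (Control). METH drives dopamine out of nerve terminals and MPTP is turned into a toxin that dopamine neurons take up, and either drug serves in mouse models of Parkinson's disease. How much was injected, and how long before the striatum was taken, is not stated in the labels.

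In spiny neurons, dopamine and adenosine receptors act on adenylyl cyclase through G proteins. The stimulatory G protein of the striatum contains the products of Gnal and Gng7, and Adcy5 encodes its main cyclase. Cyclic AMP activates protein kinase A, phosphodiesterases break it down, and kinase substrates pass the signal to phosphatases and ion channels. Several of these genes are far more active in the striatum than in the rest of the brain, and they are commonly used as markers of spiny neurons.

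Array medians lay between 1111 and 1233, and Spearman correlations between arrays over all probe sets were 0.97 to 0.985. Some spiny neuron genes outside the chosen set had high signals, which goes with the striatal label. Of 13 receptor and peptide genes of spiny neurons, 9 were on the array, and 5 of these were above the signal of 741 set for testing. Of 21 other spiny neuron markers, 14 were on the array and 13 were above that limit. Penk, an opioid peptide gene of indirect-pathway neurons, averaged 53337 in METH, 53285 in MPTP and 55245 in Control. Drd2, the dopamine receptor gene of the same neurons, averaged 17743 in METH, 17074 in MPTP and 19230 in Control. Of 14 cortical glutamatergic markers 8 were on the array, and 4 of these (Lmo4, Nptx1, Rorb and Neurod2) were above the signal of 741 set for testing. Lmo4, which striatal cells also express, was the brightest, at 7674 in METH, 8560 in MPTP and 9239 in Control. The other 4 (Neurod6, Tbr1, Fezf2 and Cux2) were below the limit. Tbr1, of deep cortical neurons, ranged from 109 to 463 in METH, 136 to 370 in MPTP and 266 to 851 in Control. In such tissue RNA, fewer cells of a type and less RNA per cell cannot be told apart.

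No member probe set passed the test between any groups. Of 15 tested, 0 passed in METH against Control, where 0.0147% of all 13584 probe sets passed, and 0 passed in MPTP against Control, where 0.0147% passed as well. The test was limma on log2 signal with Benjamini-Hochberg adjustment over all 13584, and the limit for passing was an adjusted p of 0.05. Adjusted p-values of the members ran from 0.681 to 0.971 for METH and from 0.883 to 0.996 for MPTP. At an unadjusted p under 0.05 the count was also 0 of 15 in each comparison, against 8.77% of all probe sets for METH and 5.52% for MPTP. The probe sets that passed against Control in each toxin group were both those of Gfap, the filament gene of astrocytes. For 1426508_at the signal was 12286 ± 1444 in METH, 12324 ± 1152 in MPTP and 5620 ± 733 in Control (SD, n = 3 each). Its log2 fold changes were 1.13 ± 0.13 in METH (adjusted p = 0.0395) and 1.14 ± 0.13 in MPTP (adjusted p = 0.0374, limma). With 1 array left out they stayed at 1.04 to 1.23 in METH and 1.06 to 1.24 in MPTP, but passed in 0 of 9 such fits in each, with adjusted p-values of 0.0537 to 0.311 and 0.0517 to 0.301.

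Log2 fold changes of the members were small in both toxin groups. They ran from -0.18 to 0.23 in METH against Control and from -0.21 to 0.25 in MPTP against Control. The 95% confidence intervals of all 15 stayed within 1 log2 unit of 0 in either comparison, with outermost bounds of -0.47 and 0.75 for METH and -0.67 and 0.77 for MPTP. Within 0.5 log2 units of 0 lay 13 of 15 intervals for METH and 11 of 15 for MPTP. A fold change beyond 2 thus lies outside each interval. Changes small enough to lie within an interval were not resolved with 3 arrays per group.

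**Figure D1:**
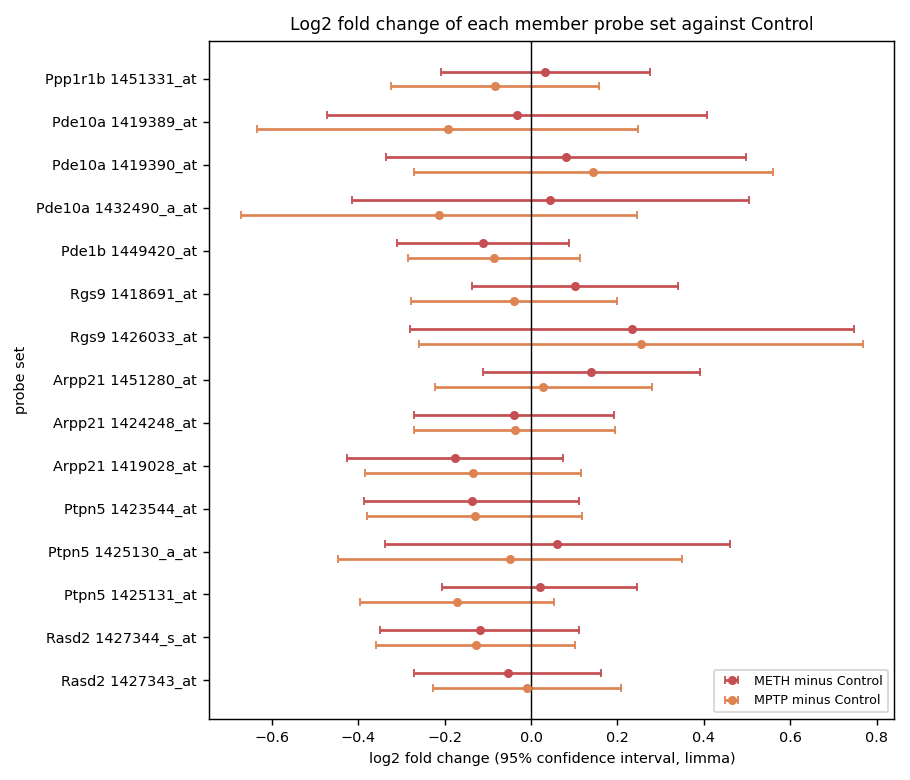
Log2 fold change of each of the 15 member probe sets (vertical axis) against Control, METH in red and MPTP in orange; points are limma estimates and bars their 95% confidence intervals. Every interval crosses 0, and the widest belong to Pde10a and to the dim Rgs9 probe set 1426033_at.

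On the receptor side, Rgs9 encodes a regulator that speeds the return of inhibitory G proteins to their inactive state, and its striatal isoform acts near dopamine and opioid receptors. Its bright probe set, 1418691_at, had signals of 30845, 32111 and 29894 on the METH arrays and 29859, 30675 and 24073 on the MPTP arrays. The Control arrays gave 28675, 28687 and 29115. Each METH array was brighter than each Control array, and MPTP 3 was the lowest of the 9. The METH against Control difference was 0.10 ± 0.11 on the log2 scale (SE) with adjusted p = 0.805, and the MPTP difference was -0.04 ± 0.11 with adjusted p = 0.979 (limma). Of the 15 members this was the 1 whose METH arrays were all higher, and 1 more was all lower, against 13.7% of all probe sets whose METH and Control arrays did not overlap.

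The other Rgs9 probe set, 1426033_at, was the dimmest member and the most variable. It gave 912, 1757 and 913 in METH, 1085, 1131 and 1243 in MPTP and 1119, 958 and 839 in Control. METH 2 stood far above the rest, and the toxin and Control arrays overlapped in both comparisons. Its log2 fold changes were 0.23 ± 0.23 in METH and 0.25 ± 0.23 in MPTP, the highest of the 15 in each, with adjusted p = 0.79 and 0.937 (limma). Without METH 2 the METH value was -0.08. Across the 9 arrays the pair of Rgs9 probe sets showed little relation (Pearson r = 0.07, exact permutation p = 0.837, adjusted p = 0.869; Spearman rho = 0, exact p = 1).

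Pde10a, a phosphodiesterase gene that is a hallmark of spiny neurons and whose enzyme breaks down both cyclic AMP and cyclic GMP, varied more between mice of a group than between groups. Probe set 1419389_at gave 17165, 22036 and 21475 in METH, 22156, 13531 and 19370 in MPTP and 20047, 24989 and 17333 in Control. On 1419390_at the signals were 11387, 15235 and 15070 in METH, 13343, 15784 and 14148 in MPTP and 10826, 17569 and 11606 in Control. For 1432490_a_at they were 10434, 15046 and 13002 in METH, 12558, 10948 and 8675 in MPTP and 10698, 16351 and 10636 in Control. Control 2 was the highest of the 9 arrays on all 3 probe sets, and the groups overlapped on each. SDs within groups were 0.27 to 0.30 log2 units, among the widest of the members.

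The Pde10a probe sets gave different signs in MPTP against Control. Their log2 fold changes were -0.19 ± 0.20, 0.14 ± 0.19 and -0.21 ± 0.21 in the order above, with adjusted p-values of 0.94 to 0.947 (limma). In METH they were -0.03 ± 0.20, 0.08 ± 0.19 and 0.04 ± 0.21, with adjusted p-values of 0.92 to 0.971. Single arrays stood apart in these differences. In MPTP 2 the signal of 1419390_at exceeded that of 1419389_at by 0.22 log2 units, whereas on the other 8 arrays it was lower, by 0.45 to 0.89. In MPTP 3 the signal of 1419390_at exceeded that of 1432490_a_at by 0.71 log2 units and in MPTP 2 by 0.53, against 0.02 to 0.21 on the METH and Control arrays and 0.09 in MPTP 1. These differences between probe sets were picked out after their values were seen and were not tested, and where each probe set lies in the transcript was not used here.

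Pde1b, whose enzyme is switched on by calcium and calmodulin, was measured by 1449420_at. It gave 36492, 38476 and 35727 in METH, 39548, 38414 and 34816 in MPTP and 39852, 38787 and 40829 in Control. All 3 METH arrays lay below all 3 Control arrays, with a gap of only 38476 against 38787 at the nearest point. The MPTP arrays overlapped with Control. Log2 fold changes were -0.11 ± 0.09 in METH (adjusted p = 0.739) and -0.08 ± 0.09 in MPTP (adjusted p = 0.942, limma). This probe set had the smallest SD within groups of the members, 0.068 log2 units.

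**Figure D2:**
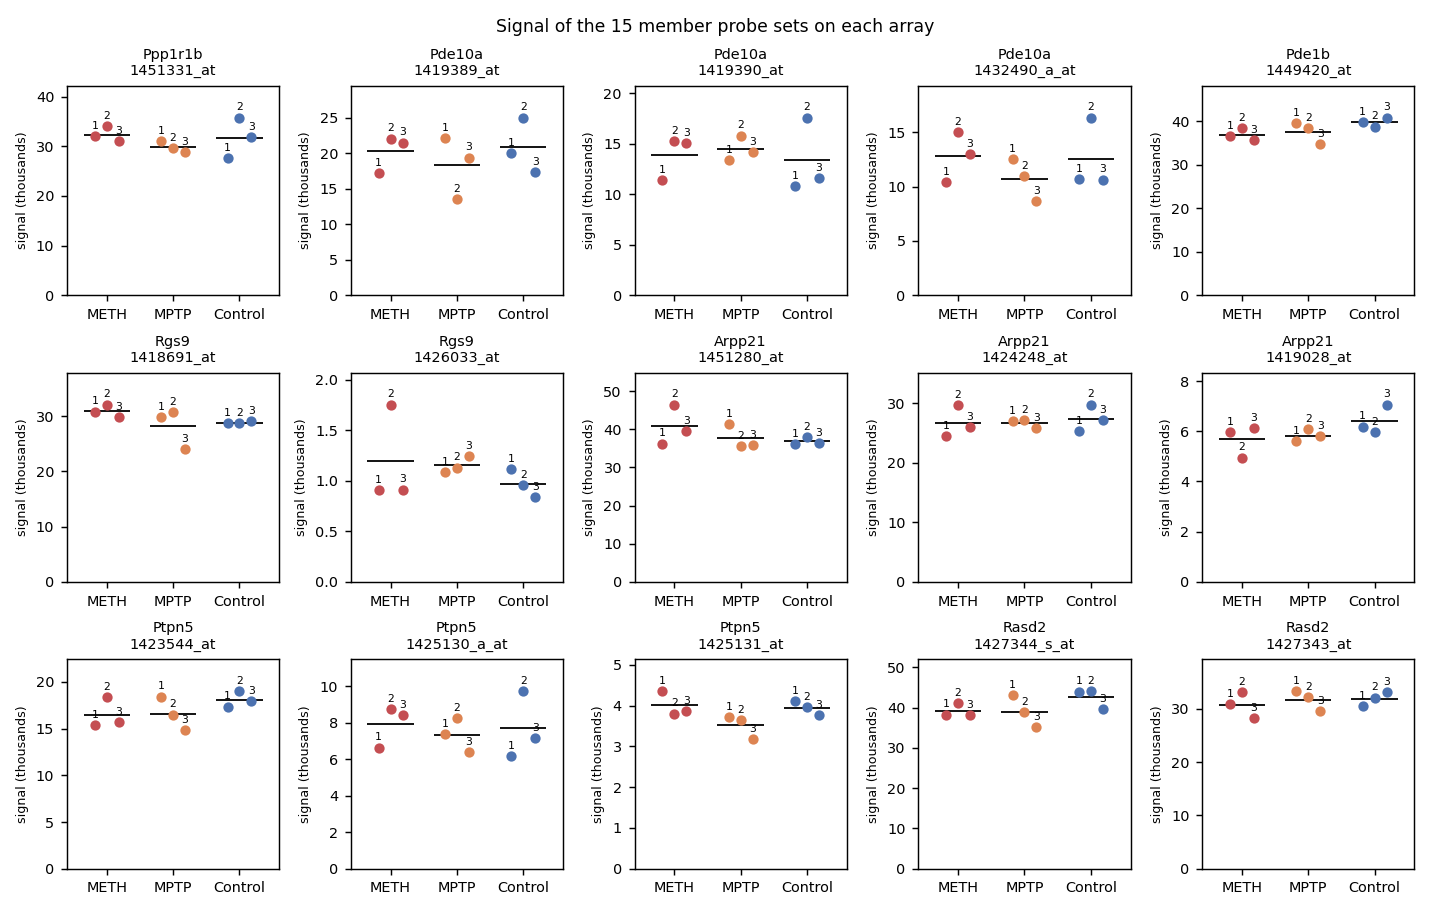
Signal (vertical axes, linear from 0, in units of 1000) of the 15 member probe sets on each array, by group; points carry the replicate number and lines are group means. Groups overlap in most panels, Control 2 is highest on all 3 Pde10a probe sets, and METH 2 is far above the other arrays on Rgs9 1426033_at.

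Among the substrates of protein kinase A, Ppp1r1b encodes the striatal protein that becomes an inhibitor of protein phosphatase 1 once the kinase has phosphorylated it. Its probe set, 1451331_at, gave 32019, 34053 and 31100 in METH, 31092, 29681 and 28824 in MPTP and 27711, 35822 and 31897 in Control. The Control arrays held both the lowest and the highest value of the 9. Group means were 32391 ± 1511 in METH, 29866 ± 1145 in MPTP and 31810 ± 4056 in Control (SD, n = 3 each). The log2 fold change of MPTP against Control had a 95% interval of -0.33 to 0.16, and that of METH against Control one of -0.21 to 0.27.

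Arpp21 encodes another phosphoprotein regulated by cyclic AMP, whose phosphorylated short form binds calmodulin. Probe set 1451280_at gave 36256, 46505 and 39487 in METH, 41293, 35676 and 35889 in MPTP and 36102, 37989 and 36347 in Control. Probe set 1424248_at gave 24558, 29688 and 25963 in METH, 26998, 27243 and 25845 in MPTP and 25342, 29827 and 27201 in Control. The dimmer 1419028_at gave 5965, 4953 and 6127 in METH, 5598, 6088 and 5806 in MPTP and 6187, 5977 and 7067 in Control. METH 2 was the highest array on the first of these and the lowest on the dimmest, and no group stood clear of another.

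Log2 fold changes of Arpp21 in METH were 0.14 ± 0.11 for 1451280_at, -0.04 ± 0.10 for 1424248_at and -0.18 ± 0.11 for 1419028_at. In MPTP they were 0.03 ± 0.11, -0.04 ± 0.10 and -0.13 ± 0.11 in the same order. Adjusted p-values were 0.681 to 0.926 in METH and 0.926 to 0.989 in MPTP (limma). Over the 9 arrays 1451280_at and 1419028_at ran in opposite directions (Pearson r = -0.76, exact permutation p = 0.0193, adjusted p = 0.212 over 11 pairs; Spearman rho = -0.4, exact p = 0.291, adjusted p = 0.616). Within groups r was -0.75. Without METH 2 and MPTP 1, the 2 arrays farthest from the median of 1451280_at, r was -0.06, so the relation rests on those arrays.

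The Arpp21 locus also holds a microRNA gene, Mir128-2, and that of Ptpn5 holds Mir7056, by the RefSeq annotation of GRCm38.p6. MicroRNAs pair with target transcripts through their seed, bases 2 to 8, and those of the Arpp21 locus are shown because the study's title concerns microRNAs in these mice. They lie on the minus strand at chr9:112118644-112118664 for the 3p and chr9:112118679-112118701 for the 5p product, with the seed in capitals. Levels of these microRNAs were not analysed here.
mmu-miR-128-3p: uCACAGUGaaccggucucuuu
mmu-miR-128-2-5p: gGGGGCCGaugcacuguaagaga

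The sequence before the annotated starts of the measured genes was searched for the cyclic AMP response element. RefSeq windows of 300 bases (250 before and 50 after each annotated start, GRCm38.p6) were listed for 6 of the 7 measured genes, and 18 windows were searched for TGACG or its complement CGTCA, on both strands. It was found in 3 of 18 windows, 16.7%, against 20.8% of all 32851 windows in the table, a share near that background. All 3 belong to Arpp21, which has 9 of the 18 windows, against 1 to 3 for each other gene, and they hold 2 distinct sites. The full palindrome TGACGTCA, which contains both half-sites, was in 0 of 18, against 1.79% of all windows. Both are printed as the matches found, each near another annotated start of Arpp21. The first is at chr9:112185969-112185997 and the second, which 2 overlapping windows share, at chr9:112217297-112217325, both on the minus strand with the half-site in capitals. A match describes these letters only.
Arpp21 start window, first half-site: ctaaggctgaggTGACGcacctgcctcct
Arpp21 start window, second half-site: gcagatgcttcaTGACGgagtaaagagtg

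Ptpn5 encodes the striatal-enriched tyrosine phosphatase that acts on kinases and glutamate receptors and is itself restrained by protein kinase A. Probe set 1425131_at gave 4351, 3808 and 3870 in METH, 3722, 3647 and 3176 in MPTP and 4109, 3969 and 3774 in Control. All 3 MPTP arrays lay below all Control arrays, 1 of 15 members to do so, where 11.1% of all probe sets had MPTP and Control arrays that did not overlap. They lay below all METH arrays as well. The log2 fold change of MPTP against Control was -0.17 ± 0.10, a fold of 0.888 with adjusted p = 0.883 (limma), the smallest adjusted p of the members in that comparison.

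The other Ptpn5 probe sets did not separate. On 1423544_at signals were 15384, 18331 and 15735 in METH, 18417, 16502 and 14821 in MPTP and 17350, 18983 and 17951 in Control. On 1425130_a_at they were 6632, 8741 and 8420 in METH, 7393, 8248 and 6375 in MPTP and 6180, 9716 and 7161 in Control, where Control 1 and Control 2 were the lowest and highest of the 9. Log2 fold changes in MPTP were -0.13 ± 0.11 and -0.05 ± 0.18, and in METH -0.14 ± 0.11 and 0.06 ± 0.18. Their adjusted p-values were 0.741 to 0.986 (limma).

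Rasd2 encodes a small guanosine triphosphatase of the striatum that dampens cyclic AMP signalling downstream of receptors. Probe set 1427344_s_at gave 38287, 41101 and 38070 in METH, 43164, 38814 and 35120 in MPTP and 44009, 44041 and 39617 in Control. Probe set 1427343_at gave 30898, 33124 and 28199 in METH, 33270, 32202 and 29569 in MPTP and 30448, 32103 and 33059 in Control. The groups overlapped on both. For 1427344_s_at the log2 fold changes were -0.12 ± 0.10 in METH and -0.13 ± 0.10 in MPTP, and for 1427343_at they were -0.05 ± 0.10 and -0.01 ± 0.10, with adjusted p-values of 0.754 to 0.996 (limma).

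As a set the members had a median log2 fold change of 0.02 in METH against Control, beside 0.01 over all probe sets tested. Of the 15, 8 were higher and 7 lower, where 52.9% of all probe sets were higher. This split depended on how the arrays were scaled, with 11 of 15 higher under quantile normalization or cyclic loess and 4 of 15 higher with arrays centred on their medians. All probe sets moved with the scaling too. Of 13584, 6565 were higher under quantile normalization, 6607 under cyclic loess and 5195 when centred, the last with a median of -0.05. The split of the members also depended on single arrays. It was 4 of 15 higher with a median of -0.08 without METH 2, and 4 of 15 and -0.06 without Control 1. Without Control 3 it was 5 of 15 and -0.03. Leaving out Control 2 moved it the other way, to 10 of 15 higher and a median of 0.0986. In MPTP against Control the median was -0.08, beside 0.01 over all probe sets, and 12 of 15 were lower, where 52.3% of all probe sets were higher. Under the same 3 scalings 10, 11 and 13 of 15 were lower. Of all 13584 probe sets 6858, 6922 and 7926 were lower in that order, with a median of -0.03 in the last. Both comparisons share the Control arrays. The MPTP median was -0.03, with 9 of 15 lower, without MPTP 3, the lowest of the 9 arrays on 6 of the 15 probe sets. It was -0.01, again with 9 of 15 lower, without Control 2, the highest array on 8 of the 15.

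**Figure D3:**
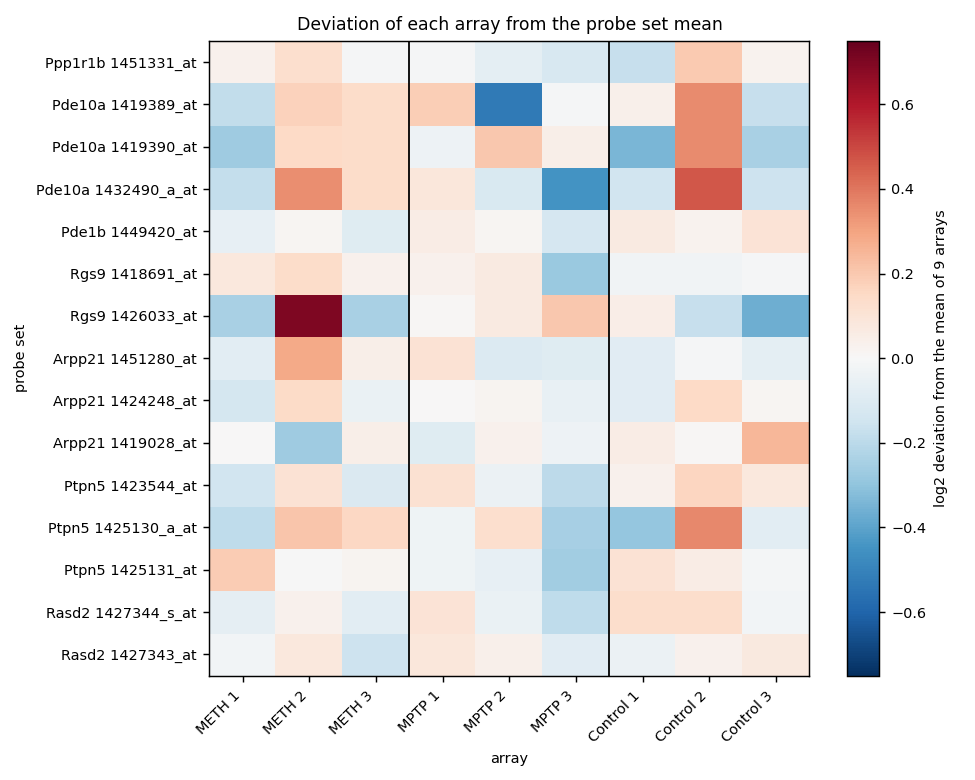
Log2 deviation of each array (horizontal axis) from the mean of 9 arrays, for the 15 member probe sets (vertical axis), red above and blue below the mean. Control 2 is red for many probe sets and MPTP 3 blue for many, and no group has 1 colour throughout.

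Between the toxins, 0 of 15 members passed in METH against MPTP, where 0% of all probe sets passed, each with adjusted p = 1 to 3 digits (limma). At an unadjusted p under 0.05 the count was 0 of 15, against 2.8% of all. Log2 fold changes of METH over MPTP were -0.06 to 0.26, with a median of 0.0087, and 8 of 15 were higher (11 of 15 under quantile normalization or cyclic loess, 7 of 15 with arrays centred on their medians). Of all 13584 probe sets 6748 were higher, and 6507, 6644 and 5646 under these 3 scalings. By the brightest probe set of each gene, 5 of 7 were higher, with a median of 0.11. That was 7 of 7 under quantile normalization or cyclic loess and 4 of 7 when centred. Ppp1r1b and Ptpn5 1425131_at were the 2 of 15 members whose METH arrays all lay above the MPTP arrays, where 7.25% of all probe sets did not overlap in either direction. Their log2 fold changes were 0.12 ± 0.11 and 0.19 ± 0.10, with 95% intervals of -0.12 to 0.36 and -0.03 to 0.42. A moderated F test over the 3 groups passed 0 of 15 members, with adjusted p-values of 0.901 to 0.991, where 0.0147% of all probe sets passed.

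How far probe sets of 1 gene followed each other over the arrays differed between pairs. Of 11 pairs within a gene, 5 had a Pearson r of 0.50 to 0.63, 4 had r of 0.07 to 0.27 and 2 had a negative r. Taken within groups, r reached 0.77 for Pde10a 1419390_at and 1432490_a_at and 0.76 for Arpp21 1451280_at and 1424248_at. With 9 arrays, 0 pairs had an adjusted p under 0.05 by an exact permutation test of Pearson r. The highest was 0.63 for Pde10a 1419389_at and 1432490_a_at (exact permutation p = 0.0685, adjusted p = 0.27; Spearman rho = 0.73, exact p = 0.0311, adjusted p = 0.324), and 0.67 without the 2 farthest arrays. For Rasd2 r was 0.50 (exact permutation p = 0.171, adjusted p = 0.313; Spearman rho = 0.5, exact p = 0.178, adjusted p = 0.489) and 0.35 without the 2 farthest.

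Other genes of the pathway, each by its brightest probe set, gave 0 past the test in either direction in all 3 comparisons, over 8 lists. All counts below are of uncalled values, beside 52.9% of all probe sets higher in METH and 52.3% in MPTP. These shares are for the signals as deposited. With arrays centred on their medians 8389 of all 13584 were lower in METH and 7926 in MPTP, with medians of -0.05 and -0.03. Under quantile normalization 7018 and 6858 were lower, and under cyclic loess 6977 and 6922. The tested genes given with values were those with the smallest p of each list, so groups that do not overlap partly follow from that choice. Over all probe sets, 13.7% did not overlap in METH against Control and 11.1% in MPTP against Control. Of 4 adenylyl cyclase genes tested, 3 had lower values in METH and 4 in MPTP against Control, with median log2 fold changes of -0.16 and -0.09. Adcy2 had 4948, 5129 and 5260 in METH, 5641, 5562 and 5531 in MPTP and 6133, 5359 and 6199 in Control. The METH arrays were the lowest 3, with a log2 fold change of -0.20 ± 0.09 (adjusted p = 0.57, limma). Adcy3, the cyclase gene best known from olfactory neurons, had -0.16 ± 0.09 in METH and -0.19 ± 0.09 in MPTP.

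The 19 other genes listed with G protein subunits include Ric8a, whose product is not a subunit and whose values were lower in both toxin groups. Of the 19, 14 had lower values in each toxin group, with medians of -0.05 in both. With arrays centred on their medians 18 of 19 were lower in METH and 16 of 19 in MPTP, with medians of -0.12 and -0.09, and under quantile normalization 12 and 13 of 19. Gnaq, whose product couples receptors to phospholipase C, went the other way. It had 969, 1244 and 1183 in METH, 1110, 1166 and 1422 in MPTP and 692, 889 and 918 in Control, so that both toxin groups lay above all Control arrays. Its log2 fold changes were 0.45 ± 0.15 in METH (adjusted p = 0.512) and 0.57 ± 0.15 in MPTP (adjusted p = 0.766, limma). Gnai2, an inhibitory subunit gene, had 0.19 ± 0.09 in MPTP, and Gnaz had -0.14 ± 0.08 in METH.

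Of 8 phosphodiesterase genes other than the members, 5 were higher in each toxin group, with medians of 0.04 in both. With arrays centred on their medians these were -0.02 in METH and -0.0023 in MPTP, beside -0.05 and -0.03 over all probe sets. Pde7b, a cyclic AMP-specific phosphodiesterase gene active in the striatum, had 4082, 5577 and 4158 in METH, 4221, 4166 and 4242 in MPTP and 3430, 4071 and 3813 in Control. Both toxin groups lay above all Control arrays, and the log2 fold changes were 0.28 ± 0.13 and 0.16 ± 0.13 (adjusted p = 0.592 and 0.917, limma). Pde8a had 0.45 ± 0.18 in METH and 0.17 ± 0.18 in MPTP, and Pde9a, which prefers cyclic GMP, had -0.26 ± 0.13 and -0.15 ± 0.13.

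Protein kinase A subunit, inhibitor and anchor genes were higher for 5 of 11 in each toxin group, with medians of -0.05 in METH and -0.0074 in MPTP, but in MPTP 8 of 11 were higher under quantile normalization and 7 of 11 under cyclic loess, with a median of 0.01 in both. Centring on array medians gave medians of -0.11 in METH and -0.05 in MPTP, with 4 of 11 higher in each. Prkar2a, a regulatory subunit gene, had 679, 820 and 820 in METH, 978, 930 and 988 in MPTP and 596, 537 and 790 in Control. It was dim, with a mean signal of 793 near the limit of 741 for testing, and METH 1, Control 1 and Control 2 lay below that limit. The MPTP arrays were the highest 3 of the 9, with a log2 fold change of 0.61 ± 0.14 against Control (adjusted p = 0.766, limma), and METH had 0.28 ± 0.14. Prkaca, the catalytic subunit gene, had 0.07 ± 0.11 in METH and 0.16 ± 0.11 in MPTP. Pkia, a kinase inhibitor gene, had 0.25 ± 0.17 in METH and 0.20 ± 0.17 in MPTP.

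The list of protein phosphatase and phosphatase inhibitor genes also held the kinase-related genes Cdk5, Cdk5r1, Csnk1e and Csnk2a1. Each of these was lower in both toxin groups. Of all 18 genes in the list, 15 were lower in METH and 16 in MPTP, with medians of -0.10 and -0.09. Under quantile normalization 12 and 14 of 18 were lower, and under cyclic loess 11 and 14, with medians of -0.05 and -0.04. Centring on array medians gave 15 and 18 of 18 lower. Ppp1r1a, which encodes an inhibitor of protein phosphatase 1 related to the product of Ppp1r1b, had 3676, 3508 and 3475 in METH, 4452, 3822 and 3854 in MPTP and 4619, 4809 and 4335 in Control. METH lay below all other arrays, with a log2 fold change of -0.37 ± 0.10 (adjusted p = 0.439, limma), and MPTP had -0.18 ± 0.10. Ppp1ca, a catalytic subunit gene of that phosphatase, had -0.17 ± 0.10 and -0.25 ± 0.10. Ensa, which encodes a phosphatase inhibitor, had -0.23 ± 0.13 in METH and -0.27 ± 0.13 in MPTP, and Ppp2r1a had -0.16 ± 0.09 and -0.06 ± 0.09.

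The list of RGS genes other than Rgs9 also held Gpsm1, which is not an RGS gene and was lower in both toxin groups. Of all 13 genes in the list, 11 were lower in METH and 9 in MPTP, with medians of -0.09 and -0.07. With arrays centred on their medians these were -0.15 and -0.11. Rgs11, of the same subfamily as Rgs9, had 2439, 2371 and 2359 in METH, 2534, 2740 and 2237 in MPTP and 2864, 3061 and 2748 in Control. Both toxin groups lay below all Control arrays, with log2 fold changes of -0.27 ± 0.10 and -0.21 ± 0.10 (adjusted p = 0.53 and 0.875, limma). Rgs2, whose transcript responds to neuronal activity, had -0.14 ± 0.11 in METH and -0.33 ± 0.11 in MPTP, and Rgs4 had -0.15 ± 0.10 and -0.12 ± 0.10. Of 11 further effector genes of cyclic AMP on the array, 8 were tested. Creb1, Crtc2 and Cngb1 were below the limit for testing. Creb1, a transcription factor gene, had 692, 924 and 894 in METH, 692, 700 and 826 in MPTP and 445, 443 and 616 in Control. Both toxin groups lay above all Control arrays, a pattern picked out after its values were seen. Crtc2 and Cngb1 overlapped with Control in both comparisons. Among the 8 tested, 4 were lower in METH and 5 in MPTP, with medians of -0.02 and -0.07. With arrays centred on their medians these were -0.09 and -0.11. Crem, a transcription factor gene of this pathway, had -0.06 ± 0.11 and -0.20 ± 0.11, Rap1a 0.13 ± 0.10 and 0.08 ± 0.10, Crtc3 0.18 ± 0.18 and -0.06 ± 0.18, and Rap1gap 0.04 ± 0.13 and -0.17 ± 0.13.

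**Figure D4:**
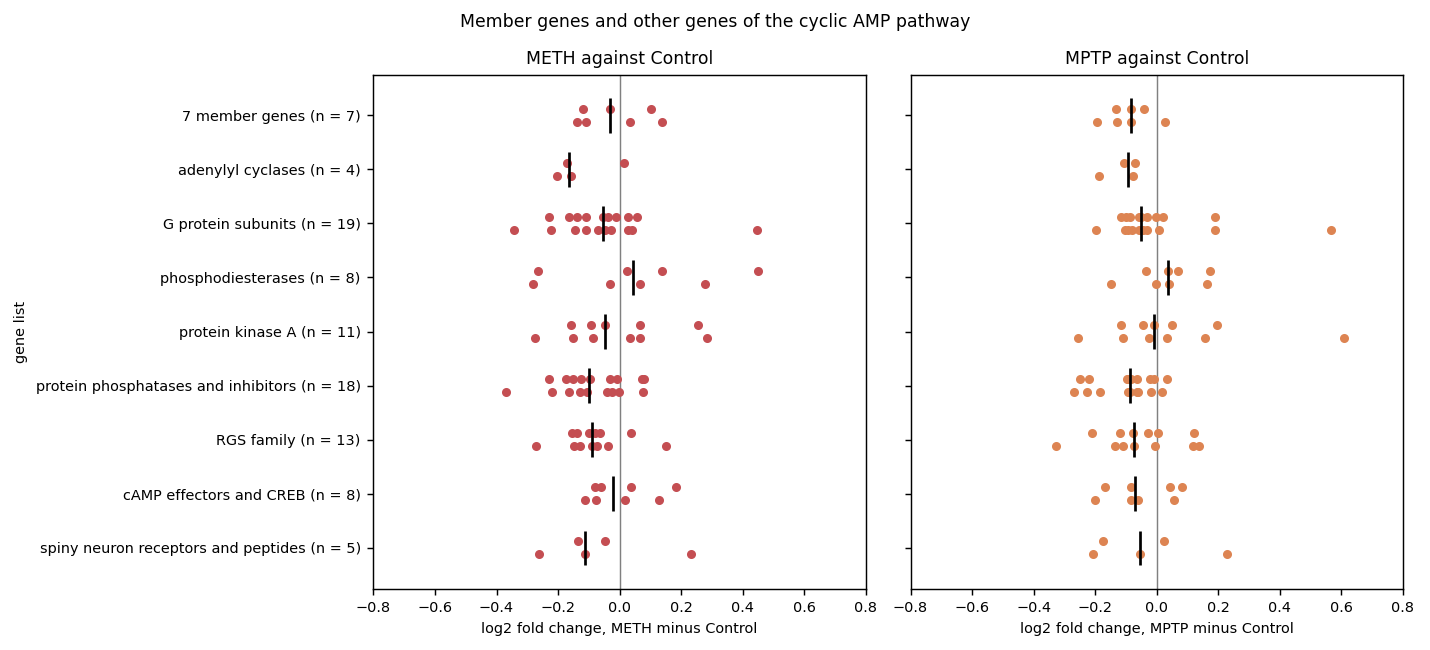
Log2 fold change (horizontal axes) of METH against Control (left) and MPTP against Control (right) for the 7 member genes by their brightest probe set and for 8 other lists of pathway genes; each point is 1 gene and each black bar a list median. The medians lie between -0.16 and 0.04, and no point passed the test.

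Of the 9 receptor and peptide genes of spiny neurons on the array, 5 were tested. In METH 4 of these were lower and in MPTP 3, with medians of -0.11 and -0.05. Under cyclic loess these were -0.06 and -0.01, and centred on array medians -0.18 and -0.09, beside -0.05 and -0.03 over all probe sets so centred. Tac1, a peptide gene of direct-pathway neurons, and Drd2 had -0.26 ± 0.10 and -0.11 ± 0.11 in METH and -0.21 ± 0.10 and -0.18 ± 0.11 in MPTP. Other spiny neuron markers were higher for 9 of 13 in METH and lower for 11 of 13 in MPTP, with medians of 0.04 and -0.07, and the METH median turned to -0.03 with arrays centred on their medians. A list score was taken as the mean log2 deviation of its genes from their means over 9 arrays. The member score was -0.06, 0.12 and -0.01 in METH 1, 2 and 3, 0.08, -0.10 and -0.15 in MPTP 1, 2 and 3, and -0.003, 0.12 and -0.01 in Control 1, 2 and 3. The groups overlapped in it. The other spiny neuron markers scored -0.02 to 0.15 in METH, -0.12 to -0.02 in MPTP and -0.07 to 0.08 in Control, and were also highest in METH 2.

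Markers of other tissue gave the following values beside these scores. Of 14 cortical glutamatergic markers, 4 were tested, and their score was -0.26 to 0.29 in METH, -0.40 to 0.27 in MPTP and -0.09 to 0.30 in Control. Their summed signal was 12624 to 16953 in METH, 12154 to 16298 in MPTP and 14682 to 16726 in Control. Pan-neuronal genes, all 10 of 10 tested, scored -0.11 to 0.03 in METH, -0.02 to 0.03 in MPTP and -0.02 to 0.10 in Control. By array the cortical score was -0.26, 0.03 and 0.29 in METH 1, 2 and 3, -0.30, -0.40 and 0.27 in MPTP 1, 2 and 3, and 0.30, -0.09 and 0.16 in Control 1, 2 and 3. Of the arrays with the lowest member scores, MPTP 2 was the lowest in it and MPTP 3 among the higher ones. Choroid plexus markers, 2 of 8 tested (Ttr and Folr1), varied most between arrays. They scored 0.80, 0.95 and -0.69 in METH 1, 2 and 3, 0.38, -1.48 and -0.77 in MPTP 1, 2 and 3, and 0.99, 0.31 and -0.49 in Control 1, 2 and 3, with summed signals of 3743 (MPTP 2) to 66558 (Control 1). MPTP 2 and MPTP 3 were the lowest in both this score and the member score, and METH 2, the highest in member score, was next to the highest in this one. Other arrays did not pair in this way. Control 1, the highest in choroid plexus score, had a member score of -0.003, and METH 1, at 0.80, had -0.06. Control 2 had a member score of 0.12, close to that of METH 2, with a choroid plexus score of 0.31. Glial lists had their lowest scores in Control. Microglial markers, 10 of 10 tested, scored -0.0003 to 0.14 in METH, -0.04 to 0.08 in MPTP and -0.21 to -0.02 in Control. Astrocyte markers, also 10 of 10, scored -0.05 to 0.11 in METH, 0.02 to 0.14 in MPTP and -0.17 to -0.05 in Control. Gfap is 1 of these 10, with log2 fold changes of 1.13 in METH and 1.14 in MPTP. The medians of the list were 0.08 and 0.17, with 2 of 10 lower in METH and 3 of 10 in MPTP. Oligodendrocyte markers, 9 of 10 tested, scored -0.01 to 0.07 in METH, 0.02 to 0.12 in MPTP and -0.18 to -0.04 in Control. In MPTP against Control 9 of 9 of them were higher, beside 52.3% of all probe sets, and in METH 6 of 9, beside 52.9%. With arrays centred on their medians 8 of 9 were higher in MPTP and 5 of 9 in METH, where 5658 and 5195 of all 13584 were. Microglial markers were higher for 10 of 10 in MPTP and 9 of 10 in METH, and for 8 and 9 of 10 when so centred. The phosphatase list, with its kinase-related genes, ran the other way. It scored -0.07 to 0.0033 in METH, -0.08 to 0.03 in MPTP and 0.05 to 0.09 in Control. The part of glial, cortical or choroid plexus RNA in the values of the members and of the other lists was not tested.

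**Figure D5:**
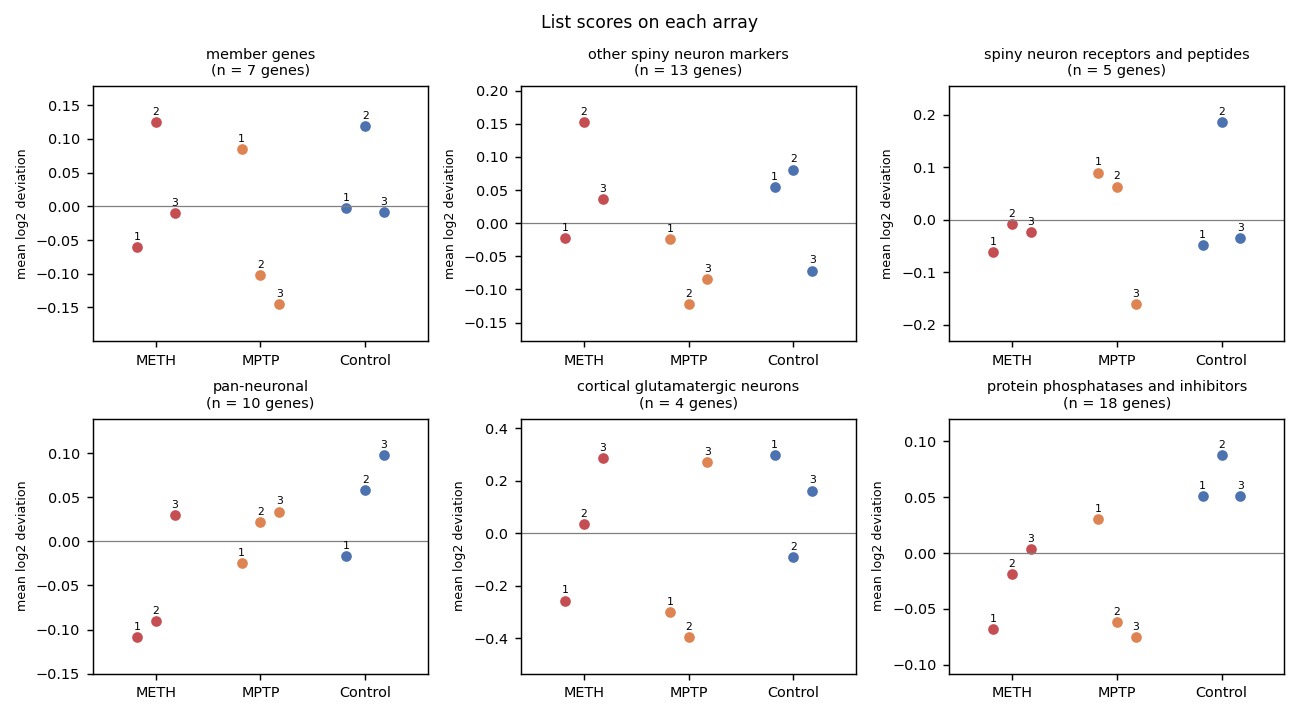
Mean log2 deviation from the 9-array mean (vertical axes) for the member genes and 5 other lists on each array, by group; points carry the replicate number. Member scores of METH, MPTP and Control overlap, and the member and other spiny neuron scores are both highest in METH 2.

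The genes most like the members over the 9 arrays were ranked by Pearson r of their brightest probe set with the member score, among 7957 candidates. The first 8 were Cnih2 (r = 0.94), Shfl, Gnao1, Gabrd, Ppp2r5d, Cyc1, Myh9 and Ctps2 (r = 0.91). Gnao1 encodes an abundant inhibitory G protein subunit of brain, and Gabrd a subunit of extrasynaptic GABA receptors. For Ppp1r1b alone the first 3 were Itgb1bp1, Fbxo11 and Dnajb4 (r = 0.95 to 0.93). For Pde10a 1419389_at they were Plppr4 (r = 0.96), Pcmtd1 and Kcnd2, which encodes a potassium channel subunit. All genes were read on the same 9 arrays and were ranked by this r, so the values describe likeness only.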

How the data were processed

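Gene expression was measured on single-colour Affymetrix arrays in 3 METH, 3 MPTP and 3 Control striata. The labels call arrays of a group biological replicates. The deposited intensity values are linear (0.342 to 84013), and each array was scaled by the authors to a common trimmed mean, as the values show. RMA is named, per the submitters' processing notes, without version or settings. The values do not have its usual log scale, so how probe sets were summarised is unsettled. Annotation gave 20380 of 22690 probe sets 1 symbol. 20351 of these were matched by gene ID to RefSeq (GRCm38.p6), and 0 symbols changed.

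Here log2 of the deposited signal was used without a pseudocount. The filter kept probe sets whose average log2 signal reached the 40th percentile (9.53, a signal of 741). With 64 array controls also left out, 13584 were tested. All 15 members passed this filter. The comparisons used lmFit and eBayes of limma 3.58.1 under R 4.3.3 (9 arrays in 1 fit, two-sided), with 6 residual and 3.94 prior degrees of freedom. The SE is that of the fit. Exact permutation tests of correlations used scipy 1.17.1. Between groups of 3, an exact permutation test has a smallest p of 0.1 and was not applied. Precision is limited by how few arrays there are. The fit was tested on simulated data. Members and lists were chosen with earlier results of these data known. Tested genes of other lists were given with values by the smallest p, up to 2 per list in METH and 2 in MPTP against Control. Alternatives were other normalizations, filters, a pseudocount, gene-level units, variance models, a replicate block and each array left out.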

Additional observations from a re-analysis of the deposited data

How the results depend on the processing

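Under every alternative run (13 settings and each of the 9 arrays left out) 0 member probe sets passed in any comparison or in the F test, and the lowest adjusted p of a member was 0.482 (limma). Of 45 member log2 fold changes, 26 changed sign under at least 1 of these, and 19 did not. The dim Rgs9 probe set 1426033_at was not tested with the filter at the 60th percentile. The member median in METH against MPTP was 0.11 with genes by their brightest probe set, against 0.0087 over the 15 probe sets, and with 1 array left out it ran from 0.00717 to 0.12. With 1 array left out, the METH against Control median ran from -0.0807 (without METH 2) to 0.0986 (without Control 2) and that of MPTP against Control from -0.10 to -0.0084. The number of all probe sets past the test, 2 against Control for each toxin and 2 by F, fell to 0 in each of the 3 with arrays centred on their medians and with the replicate block. It was 1 for METH, 0 for MPTP and 0 by F with no filter. It was 1 in each of the 3 with genes by their brightest probe set or by their mean, or with suffixed probe sets left out. With only the compared groups in the fit it was 1 for METH and 0 for MPTP, and with array weights 1 for MPTP. With 1 array left out it ran from 0 to 1 for METH and was 0 for MPTP and by F. The calls that ended include those of Gfap 1426508_at, whose log2 fold change stayed at 1.07 to 1.20 in METH and 1.05 to 1.20 in MPTP under the 13 settings; the cause was not tested. The 3 arrays per group limit what could be called. The replicate numbers share only a number: same-numbered arrays of different groups had correlations of -0.13 to 0.05 in their deviations from the group means, and 0 of 9 arrays correlated best with their own number.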
